A study of Mus musculus with 8 samples.

Results

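The Zfp genes of the mouse encode zinc finger proteins, and they were examined here in whole brain after methanol (MeOH) and after normal saline. A probe was a member when its annotated gene symbol began with Zfp and a digit and when it was detected, at a detection p-value under 0.05, on at least 4 of the 8 arrays. By this rule 190 probes of 157 genes entered the comparison, out of 11938 probes that passed the same filter and 25697 on the array. The detection p-value is the chance of so bright a signal from the negative control beads of the same array.

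RNA of the brain was hybridised to Illumina MouseRef-8 BeadChips, 1 array per sample, with 4 arrays labelled methanol and 4 labelled normal saline. The labels give 120 mg/kg MeOH in 350 µl, or 350 µl of saline, and tissue collected after 2 h. They do not name a route, and they do not say whether an array holds RNA of 1 animal. The methods describe another treatment, in which BALB/c males inhaled vapor from cotton wool wetted with MeOH or with water, in larger groups. Dose, vehicle and group size are therefore taken from the labels, and the route is not settled. No genotype, transgene or age is given for either group in the sources used here.

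The labels, like the methods, give the animals as male, and the arrays did not match this. Xist, the RNA of the inactive X chromosome, was detected on 8 of 8 arrays (log2 intensity 8.66 to 8.995 on the brighter of its probes). Of the Y-linked genes, Kdm5d and Eif2s3y were detected on 0 arrays and Uty on 4. Xist averaged 8.86 ± 0.14 over methanol arrays and 8.94 ± 0.06 over saline arrays (SD, n = 4 each). As a check of the tissue, 11 of 14 brain cell marker genes were detected on all 8 arrays by a probe, although Tubb3 was detected on 0 and Snap25 on 1, and of the 22 probes of these genes 17 could be compared and 0 passed the test between groups. The liver genes Alb and Apoa2 and the muscle gene Ckm were detected on 0 arrays, while the muscle actin gene Acta1 was detected on 8. Red cell genes were lower after MeOH, with log2 changes of -1.79 for Hba-a1 and -1.80 for Alas2, and their part in the results below was not tested. The choroid plexus gene Ttr ran from 7.53 to 14.40 among the saline arrays. In bulk tissue, fewer cells of a type and less RNA per cell cannot be told apart.

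Most Zfp proteins hold runs of C2H2 fingers, in which a pair of cysteines and a pair of histidines clasp a zinc ion and the finger touches DNA. The largest class also carries a KRAB domain, which recruits the corepressor Trim28 and with it the histone methyltransferase Setdb1, so that the bound DNA is silenced, transposable elements above all. KRAB genes lie in clusters on a few mouse chromosomes and are usually expressed at low levels. Other members are unrelated by function and share only the name: some bind RNA, sit in the nucleolus or act on the spindle.

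Of the 380 Zfp probes on the array, which stand for 280 genes, 143 were detected on 0 arrays and 47 on 1 to 3, and these 190 were not compared. Among the 190 compared, 153 were detected on all 8 arrays and 37 on 4 to 7. The share that could be compared was 50% for Zfp probes and 46.5% for all probes on the array, and 123 Zfp genes had no probe in the comparison. The Zfp probes detected on an array numbered from 168 on methanol array 4 to 200 on methanol array 1, and lay between 190 and 194 on the saline arrays. When all compared probes were split into 3 equal classes by mean intensity, 84 Zfp probes fell in the dimmest class, 77 in the middle one and 29 in the brightest. The test below called 3 of the dimmest class (3.57%, against 3.04% of all probes there), 7 of the middle one (9.09% against 6.36%) and 1 of the brightest (3.45% against 7.41%).

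Few Zfp probes differed between MeOH and saline. In the fit over all probes, 3 Zfp probes rose and 8 fell (limma, Benjamini-Hochberg adjusted p under 0.05), which is 5.79% of the 190 against 5.60% of all 11938 probes. The share that rose was 1.58% against 3.12% of all, and the share that fell was 4.21% against 2.49%. With a change of at least 1.3-fold required as well, 8 Zfp probes were left, 4.21% against 4.67%. The overall count therefore lay at the level of the array as a whole. The 3 that rose belong to Zfp27, Zfp367 and Zfp318. Those that fell were both probes of Zfp330 and 1 probe each of Zfp985, Zfp420, Zfp655, Zfp758, Zfp706 and Zfp472. The probes of Zfp985 and Zfp706 and Zfp330 probe ILMN_2825109 were detected on at most 1 methanol array. They entered only through saline, so the larger share that fell is not read as a result. Among probes detected on all 8 arrays, 3 of 153 Zfp probes rose and 4 fell, against 327 and 257 of 9908.

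**Figure D1:**
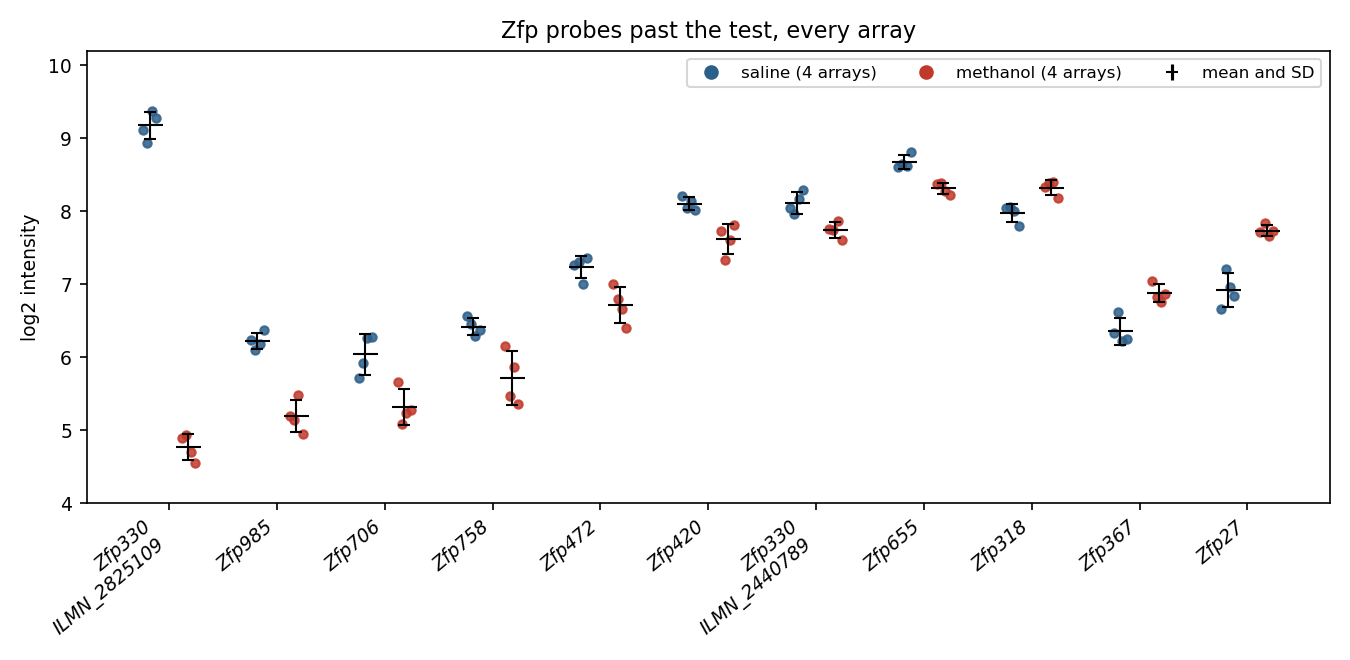
Log2 intensity (vertical axis) of the 11 Zfp probes past the test, on each of 4 saline and 4 methanol arrays. Points are arrays and black marks are group means with the SD. The groups do not overlap for any of the 11, and the gap is widest for the Zfp330 probe ILMN_2825109.

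The calls differed in how far they rested on single arrays. Those of Zfp330 probe ILMN_2825109, Zfp27 and Zfp985 held whichever array was left out. The other 8 calls were lost on leaving out certain arrays, from 2 of the 8 arrays for Zfp420 to 7 for the second Zfp330 probe. With a single array left out, 1 to 3 Zfp probes rose and 3 to 7 fell. In the deposited normalized table, where background is not subtracted, the same 11 probes passed with smaller changes, such as -0.29 for Zfp420, 0.23 for Zfp318 and -0.23 for the second Zfp330 probe.

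The remaining 179 probes moved little. Their log2 changes ran from -0.46 for Zfp748 to 0.41 for Zfp385a, and 183 of all 190 lay within 0.5 of 0. The median change of the Zfp probes was 0.02 (108 above 0 and 82 below), and that of all probes was -0.0021. The standard error of a Zfp change was 0.13 in the median and ran from 0.07 to 0.21. The smallest change past the test was 0.35, so that smaller shifts of single genes were mostly not detectable with 4 arrays a group. The spread between arrays of one group was no wider for Zfp probes than for the rest, with a median SD of 0.167 in both.

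A wider set of Zfp probes separated the groups without passing the test. The 4 methanol arrays lay all above or all below the 4 saline arrays for 36 of 190 Zfp probes, or 18.9%, against 12.4% of all probes. Of these 36, 17 were higher after MeOH (8.95% against 6.60%) and 19 lower (10% against 5.77%). Those 19 include the probes of Zfp985 and Zfp706 and Zfp330 probe ILMN_2825109, which entered only through saline. The larger shares without overlap are therefore not read as a result. Only 11 of them passed the adjusted test and 25 did not, 14 of them higher and 11 lower. At an unadjusted p under 0.05, limma counted 45 Zfp probes, or 23.7%, against 20.7% of all. Among probes detected on all 8 arrays, 7 of 153 Zfp probes passed (4.58%, against 5.89% of all such probes).

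**Figure D2:**
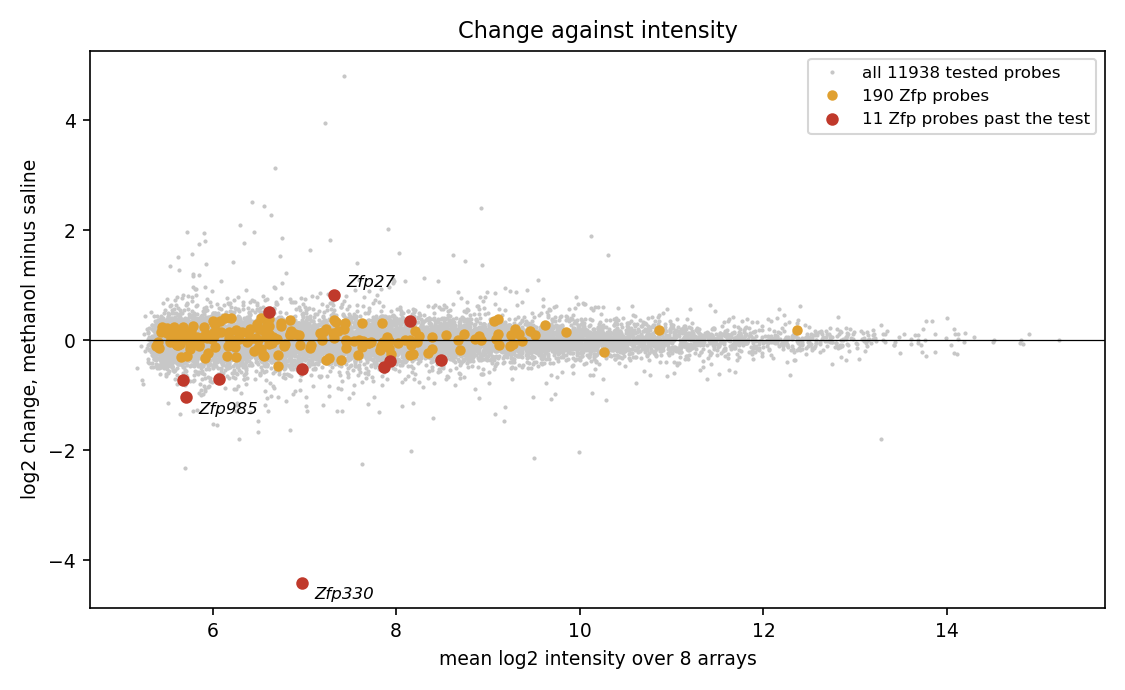
Log2 change after MeOH (vertical axis) against mean log2 intensity over 8 arrays (horizontal axis), for all 11938 probes in grey, the 190 Zfp probes in yellow and the 11 past the test in red. One Zfp330 probe lies at -4.41, below every other probe, and 183 of the Zfp probes lie within 0.5 of 0.

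Zfp330 encodes NOA36, a cysteine-rich nucleolar protein first known in humans as an autoantigen, and its 2 probes gave very different values. Probe ILMN_2825109 read 4.90, 4.94, 4.70 and 4.55 (log2 intensity) on methanol arrays 1 to 4. On saline arrays 1 to 4 it read 9.12, 8.94, 9.37 and 9.28. It was detected on 4 of 4 saline arrays and on 0 of 4 methanol arrays, and no array lay between these 2 ranges. Since the methanol values are only a bound, the probe was at least 13.2-fold lower after MeOH on the background-corrected scale. This bound runs from the saline mean to the lowest detected signal of each methanol array. The fitted log2 change was -4.41 (SE 0.13, limma adjusted p = 1.65e-11), the lowest of all 11938 probes. In the deposited normalized table, where background is not subtracted, the same change was -2.20.

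The other Zfp330 probe, ILMN_2440789, was detected on all 8 arrays. It read 7.76, 7.75, 7.87 and 7.61 on the methanol arrays and 8.04, 7.96, 8.17 and 8.30 on the saline arrays. Its groups also did not overlap, but the nearest arrays were 0.09 apart and the change was -0.37 (SE 0.10, limma adjusted p = 0.0465). Both probes are annotated to the same transcript record, so the record does not tell them apart. Leaving out any single array except saline 1 ended the call of this probe, with an adjusted p of up to 0.149, whereas the change of ILMN_2825109 stayed between -4.49 and -4.34.

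Zfp27, a C2H2 gene on chromosome 7, gave the highest rise among the Zfp probes. Probe ILMN_2490271 read 7.72, 7.83, 7.66 and 7.73 on the methanol arrays. On the saline arrays it read 6.66, 7.21, 6.96 and 6.84, all below the methanol values. The change was 0.82 (SE 0.12, limma adjusted p = 0.00102), or 0.42 in the deposited normalized table. Its other probe, ILMN_3117788, lay at 6.94 ± 0.05 after MeOH and 6.77 ± 0.18 after saline (SD, n = 4 arrays each), with a change of 0.17 and an adjusted p of 0.442. These probes are annotated to 2 different transcript records of the gene.

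Because the Zfp27 probes are assigned to different transcripts, the start regions that RefSeq gives for the gene are printed here, together with that of Zfp420, its neighbor on the chromosome, which fell. Each window holds 300 bases, 250 before and 50 after the start, from the RefSeq table of build GRCm38.p6, printed 5′ to 3′ on the strand of the gene with each CG dinucleotide in capitals. Zfp27 has 2 annotated starts, 428 bases apart. The upstream window (chr7:29906483-29906782, minus strand) holds 1 CG and the downstream one (chr7:29906055-29906354, minus strand) holds 13. The Zfp420 window (chr7:29859762-29860061, plus strand) holds 11 CG.
Zfp27, upstream start: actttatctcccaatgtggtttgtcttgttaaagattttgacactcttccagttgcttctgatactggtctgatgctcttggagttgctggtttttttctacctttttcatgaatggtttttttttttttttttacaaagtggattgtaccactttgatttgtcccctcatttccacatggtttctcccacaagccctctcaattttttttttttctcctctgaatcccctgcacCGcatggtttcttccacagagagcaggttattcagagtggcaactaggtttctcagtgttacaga
Zfp27, downstream start: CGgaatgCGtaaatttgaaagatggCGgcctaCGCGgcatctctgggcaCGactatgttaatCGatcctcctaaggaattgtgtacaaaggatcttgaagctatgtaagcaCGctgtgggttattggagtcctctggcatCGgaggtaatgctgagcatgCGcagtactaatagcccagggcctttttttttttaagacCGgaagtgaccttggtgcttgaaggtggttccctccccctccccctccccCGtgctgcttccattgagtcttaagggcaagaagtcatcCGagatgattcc
Zfp420: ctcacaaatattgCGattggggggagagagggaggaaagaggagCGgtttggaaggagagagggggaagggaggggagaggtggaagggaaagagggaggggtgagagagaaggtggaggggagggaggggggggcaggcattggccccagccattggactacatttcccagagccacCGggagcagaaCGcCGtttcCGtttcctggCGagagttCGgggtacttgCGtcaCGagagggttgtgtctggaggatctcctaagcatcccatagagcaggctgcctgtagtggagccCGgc
Over the 32851 windows of the table the median was 7 CG, and 94.6% held at least 1. The tables used here do not tie either probe to a start, so no change is assigned to a start. Zfp330 has a single start window in the table.

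Zfp420, whose human counterpart restrains p53, lies 46.1 kb from the nearer Zfp27 start and is transcribed toward it. Its probe read 7.73, 7.33, 7.61 and 7.82 on the methanol arrays and 8.21, 8.05, 8.14 and 8.01 on the saline arrays. All 4 methanol values were below all saline values, and the change was -0.48 (SE 0.11, limma adjusted p = 0.0223). Zfp27 probe ILMN_2490271 and the Zfp420 probe therefore moved in opposite directions. Zfp27 probe ILMN_3117788 changed by only 0.17 (limma adjusted p = 0.442), and the Zfp420 call was lost on leaving out either of 2 of the 8 arrays. The other Zfp probes compared within 1 Mb of Zfp27 gave no calls: Zfp30 at 0.18, Zfp790 at 0.26, Zfp940 at 0.15 and Zfp566 at 0.23, with adjusted p from 0.202 to 0.680.

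Chromosome 7 carried 47 of the 190 Zfp probes (24.7%, against 7.35% of all probes), of which 1 of Zfp27 was called higher and 1 of Zfp420 lower. Chromosome 17 carried 20 Zfp probes (10.5%, against 4.90% of all) and 3 of the calls, Zfp758 and Zfp472 lower and Zfp318 higher. With 5.79% of all Zfp probes and 5.60% of all probes called, nothing is read from so few calls on either chromosome. RefSeq places 19 other Zfp genes within 1 Mb of Zfp758 and 13 near Zfp472. Only 5 Zfp probes near Zfp758 and 6 near Zfp472 were compared, and 0 passed. At a share of 5.79% over all Zfp probes, so few probes do not show whether these clusters changed. Zfp330, on chromosome 8, has 0 other Zfp genes within 1 Mb. Of 19 compared probes in that window, 1 was called higher and 2 lower, 15.8% against 5.60% of all probes. This was the highest share among the windows of the called genes, and the others ran from 0% (such as Zfp655) to 9.09% (Zfp318). With so few probes, nothing is read from it.

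Zfp985, in a cluster of Zfp genes on chromosome 4, read 5.19, 5.13, 5.49 and 4.95 on the methanol arrays. It read 6.24, 6.11, 6.18 and 6.37 on the saline arrays. It was detected on 1 of 4 methanol and 4 of 4 saline arrays, and its change was -1.03 (SE 0.16, limma adjusted p = 0.00116), or -0.31 in the deposited normalized table. With the undetected methanol arrays set to their lowest detected signal, it was at least 1.69-fold lower on the background-corrected scale. Zfp706 encodes a small protein that in mouse embryonic stem cells restrains Klf4. On the methanol arrays it read 5.66, 5.08, 5.24 and 5.28, and on the saline arrays 5.71, 5.92, 6.26 and 6.28. Methanol array 1 nearly met saline array 1, and detection was again 1 of 4 against 4 of 4. The change was -0.73 (SE 0.18, limma adjusted p = 0.0291), at least 1.42-fold lower by the same bound, and -0.22 in the deposited normalized table. Zfp330, Zfp985 and Zfp706 were the 3 Zfp probes seen on all arrays of one group and at most 1 of the other. All of them passed, as did 32.2% of the 121 such probes on the array, and since a probe of this kind entered only through its bright group, nothing is read from that.

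Zfp758 and Zfp472 belong to the chromosome 17 clusters. The Zfp758 probe read 6.16, 5.47, 5.87 and 5.36 after MeOH and 6.57, 6.46, 6.29 and 6.37 after saline, with 3 of 4 methanol arrays detected. Its methanol arrays were widely spread, over 0.79 units against 0.28 for saline, and the change was -0.71 (SE 0.17, limma adjusted p = 0.0283), or -0.22 in the deposited normalized table. The Zfp472 probe read 7.0, 6.80, 6.67 and 6.41 after MeOH and 7.26, 7.31, 7.01 and 7.36 after saline. Methanol array 1 and saline array 3 differed by 0.01, and the change was -0.52 (SE 0.14, limma adjusted p = 0.0378), or -0.24 in that table. With an array left out, adjusted p was up to 0.0727 for Zfp758 and 0.113 for Zfp472.

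Zfp655, whose human counterpart acts in the cell cycle, was read closely alike within each group. Its probe read 8.37, 8.38, 8.28 and 8.22 after MeOH and 8.61, 8.64, 8.62 and 8.81 after saline. The nearest arrays of the 2 groups were 0.22 apart, more than the range of 0.16 within methanol and 0.21 within saline, and the change was -0.36 (SE 0.09, limma adjusted p = 0.0266).

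Zfp367, whose human counterpart was described as an activator of erythroid promoters, was one of the 3 probes that rose. It read 7.05, 6.83, 6.75 and 6.87 after MeOH and 6.33, 6.62, 6.22 and 6.25 after saline. Saline array 2 stood nearest to the methanol values, and the change was 0.52 (SE 0.13, limma adjusted p = 0.0274), or 0.21 in the deposited normalized table. A further Zfp367 probe was detected on 1 methanol array and was not compared. Zfp318, a nuclear protein that B cells need to make IgD, read 8.33, 8.38, 8.40 and 8.18 after MeOH and 8.04, 8.06, 8.01 and 7.80 after saline. Array 4 was the lowest of each group, and the change was 0.35 (SE 0.09, limma adjusted p = 0.0465). The other Zfp318 probe was detected on 0 arrays.

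Probes of one gene can be set against each other without comparing their levels, by asking whether the difference between them shifted with MeOH. Among the Zfp genes, 30 had several compared probes, which made 36 pairs. The shift passed the test in 2 pairs, those of Zfp330 and Zfp27, or 5.56%, against 1.77% of all 3511 pairs on the array. The dimmer Zfp330 probe entered only through saline. Without the Zfp330 pair the count was 1 of 35, or 2.86%, against 1.74% of all other pairs. With so few pairs past the test, the larger share is not read as a result. For Zfp330 the difference between the probes was 2.86, 2.81, 3.17 and 3.06 on the methanol arrays and -1.08, -0.98, -1.20 and -0.99 on the saline arrays. The groups were apart on every array, and the fitted shift was 4.04 (SE 0.12, limma adjusted p = 8.69e-10). As the dimmer probe was detected on 0 methanol arrays, its methanol values were also set to the lowest detected signal. This bounds the shift from below at 3.35 on the background-corrected scale only. Other processing gave shifts as low as 1.96. For Zfp27 the difference was 0.79, 0.94, 0.66 and 0.80 after MeOH and 0.15, 0.28, 0.18 and -0.01 after saline, with a shift of 0.65 (SE 0.12, limma adjusted p = 0.0137). Here too no arrays overlapped, and both shifts kept an adjusted p under 0.05 when any array was left out.

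**Figure D3:**
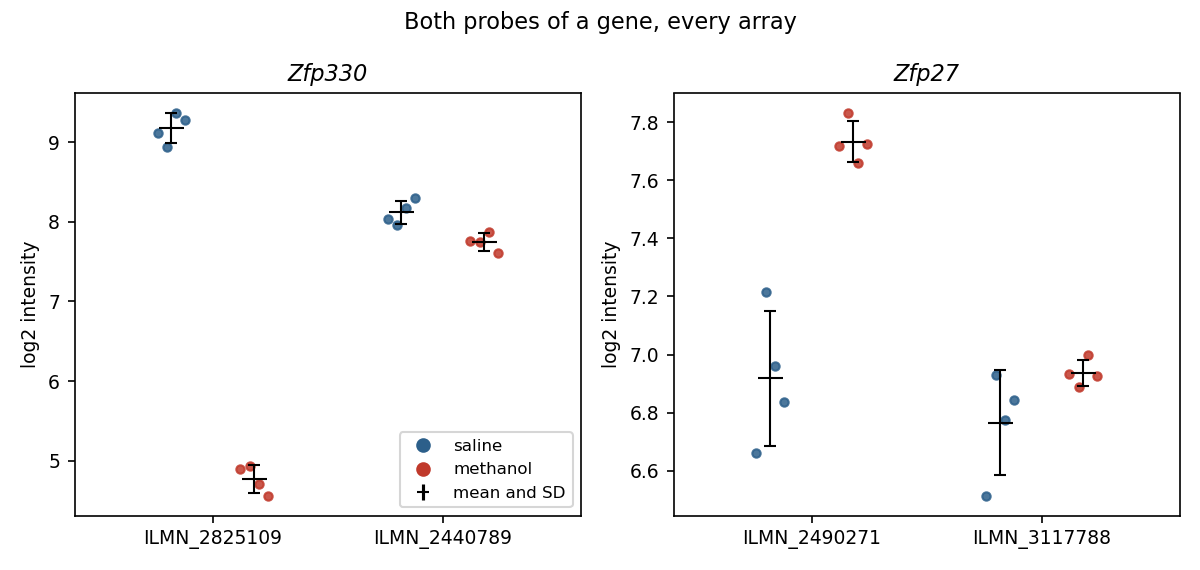
Log2 intensity (vertical axis) of both probes of Zfp330 and of Zfp27 on each of 4 saline and 4 methanol arrays, with group means and the SD in black. The changes were -4.41 and -0.37 for Zfp330 and 0.82 and 0.17 for Zfp27, the last not past the test.

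The other Zfp pairs did not show a shift past the test. Both probes changed in one direction in 29 of 36 pairs (80.6%, against 64.9% of all pairs), and all probes of the gene did so in 24 of 30 genes. The 2 changes differed by under 0.2 in 27 pairs (75%, against 67.0%). Pearson's r between the changes of paired probes was 0.457 over 36 pairs, against 0.498 over all 3511 pairs. Without the pairs of Zfp330 and Zfp27 it was 0.718, but these were left out for their shift, so a higher r follows from that choice. The values are given as a description, since paired probes share arrays. All 5 pairs on different transcript records changed in one direction, as did 24 of the 31 on one record. After those of Zfp330 and Zfp27, the pair with the lowest p was of Zfp326 (changes of 0.01 and 0.37, adjusted p = 0.274).

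**Figure D4:**
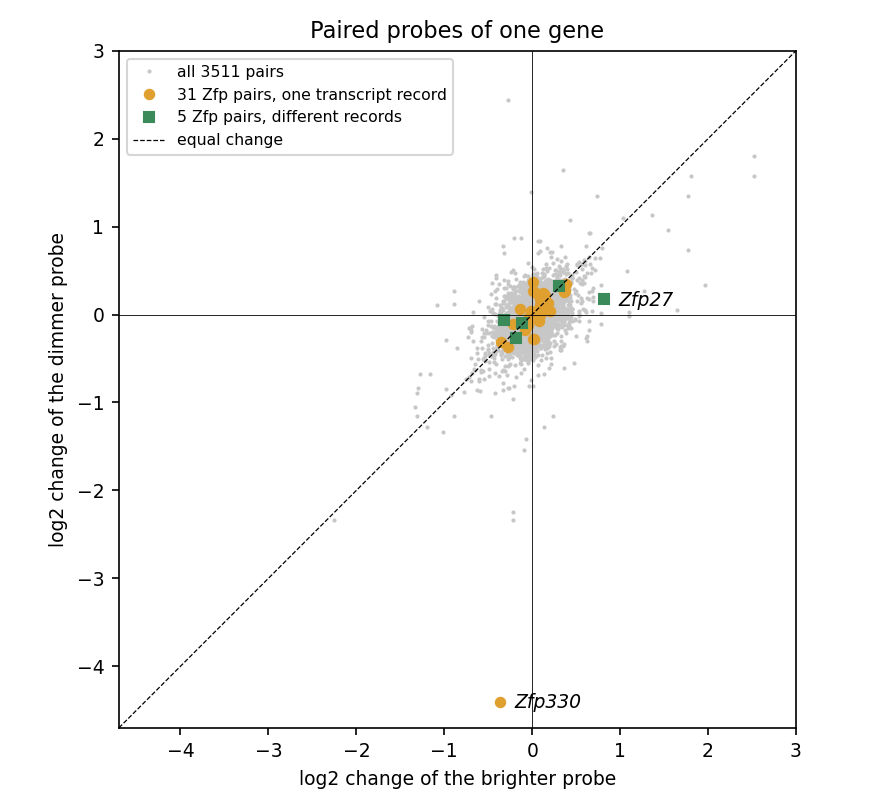
Log2 change of the dimmer probe (vertical axis) against that of the brighter probe (horizontal axis) for 2 probes of one gene, with all 3511 pairs in grey and the 36 Zfp pairs in color. Points on the dashed line changed equally, and the Zfp330 pair lies furthest from it.

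For some genes, chosen after their values were seen, the probes gave like values outside the threshold. Zfp131, a BTB domain factor, had 2 probes, with changes of 0.35 (SE 0.10, limma adjusted p = 0.0504) and 0.38 (SE 0.11, adjusted p = 0.0535). They read 8.98 to 9.38 and 9.03 to 9.55 after MeOH and 8.84 to 8.96 and 8.80 to 9.01 after saline, with no overlap for either probe. Both passed with robust eBayes. Of 9 alternative settings they passed in 4 and 2, and limma adjusted p was up to 0.373 and 0.337 in the others. Zfp292, a large factor linked in humans to intellectual disability, changed by -0.28 and -0.37 (adjusted p = 0.0893 and 0.0900), and again neither probe overlapped. Together with Zfp330 these were the 3 of 30 genes with several probes whose probes all separated the groups in one direction. Among all single probes 12.4% separated the groups, and the share of such genes over the whole array was not counted. One Zfp330 probe also entered only through saline, so nothing is read from this count. The probes of Zfp692 changed by 0.33 and 0.31 (adjusted p = 0.103 and 0.144) and those of Zfp428 by -0.35 and -0.31 (adjusted p = 0.110 and 0.249).

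The Zfp genes were also counted by role. Of 10 probes of 8 genes whose proteins act outside DNA binding, 0 rose and 3 fell, both Zfp330 probes and that of Zfp706, where 2.49% of all probes fell. The median change was -0.17, these 3 included, against -0.0021 for all probes, and the other 8 Zfp calls lay outside this list. The 7 other probes did not pass, and the highest adjusted p was that of Zfp346, a protein that binds double-stranded RNA, at -0.05 (adjusted p = 0.841). Zfp330 was known to be low when the list was made, so its place there is no evidence about the list. The Zfp706 probe and Zfp330 probe ILMN_2825109 also entered only through their saline values. Neither the share that fell nor the median is therefore read as a result about the list.

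Among the CCCH proteins that speed mRNA decay, 0 of 3 probes passed, with a median of -0.11. Zfp36, or tristetraprolin, was at 0.31 (SE 0.14, adjusted p = 0.207), and the probes of Zfp36l1 were at -0.11 and -0.22 (adjusted p = 0.519 and 0.359). Of genes of neural development and myelination, 0 of 8 probes passed, with a median of -0.09, from Zfp292 above to Zfp804a, whose human counterpart is a schizophrenia risk gene, at 0.02 (adjusted p = 0.966). General promoter factors gave 0 of 8, with a median of 0.09, 7 probes above 0 and Zfp219 at 0.01 (adjusted p = 0.980). Of the genes for imprints and pluripotency 1 was compared, Zfp296, at 0.23 (adjusted p = 0.494). As 5.60% of all probes were called, a count of 0 in lists this small is not read as a result about the list.

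Of the corepressors on which KRAB proteins depend, 18 probes of 14 genes were compared. Of these, 1 rose and 0 fell, or 5.56% against 5.60% of all probes, with a median change of -0.06. The riser was Atf7ip, the partner of Setdb1, at 8.51 ± 0.08 after MeOH against 8.15 ± 0.11 after saline (SD, n = 4 arrays each), a change of 0.36 (SE 0.09, limma adjusted p = 0.0283). Without passing, 1 of 3 Chd4 probes (-0.45, adjusted p = 0.155) and 2 of 3 Rbbp7 probes (-0.23 and -0.24, adjusted p = 0.176 and 0.189) lay lower with no overlap between groups. Over all probes, 5.77% did so. The other Chd4 probes were at 0.36 (limma adjusted p = 0.267) and -0.04 (adjusted p = 0.876), so the probes of this gene did not move together. The other Rbbp7 probe was at -0.19 (limma adjusted p = 0.337). Setdb1 was at 0.03 (adjusted p = 0.943) and Trim28 at -0.07 (adjusted p = 0.643). The Atf7ip call was lost when any of 5 of the 8 arrays was left out, with adjusted p up to 0.0954.

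**Figure D5:**
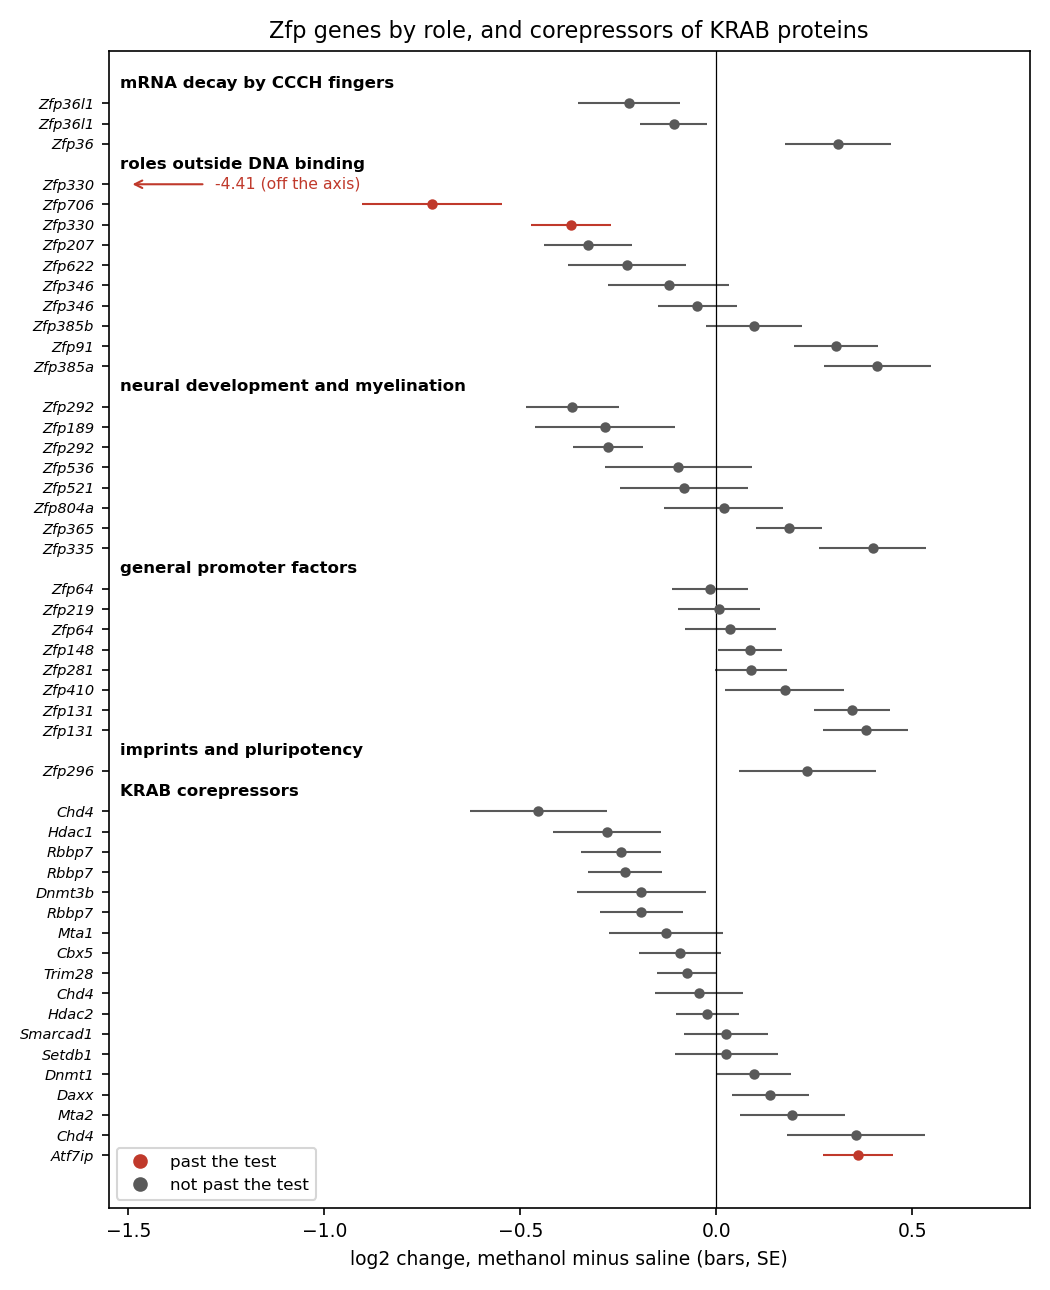
Log2 change after MeOH (horizontal axis, bars give the SE) of the probes of each list by role, with probes past the test in red. The arrow stands for the Zfp330 probe at -4.41, which is off the axis, and 0 of the neural, promoter and mRNA decay probes are in red.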

How the data were processed

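The authors hybridised brain RNA to Illumina arrays, scanned them on a BeadArray Reader and processed the values in GenomeStudio. Of the 2 intensity tables deposited, the un-normalized one was the starting point. The deposited table titled non-normalized held equal sorted values in every column, that is, intensities already normalized, with the detection p-values used here. Intensities were background-corrected with normexp (offset 16) and quantile normalized (neqc, limma 3.58.1 in R 4.3.3). Background subtraction sets the size of change of dim probes. Probes detected on at least 4 of 8 arrays were compared with limma's moderated test with a variance trend, two-sided, with the adjustment over all 11938 probes. Pairs of probes were tested by the same model on their difference, adjusted over 3511 pairs. In simulated data the pipeline was tested before use.

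Gene names came from the platform annotation, in which 1719 probes have no single symbol, and chromosomes from RefSeq. Named are all Zfp probes and pairs past the test, every other compared probe of those genes, the probes with the lowest and highest adjusted p of each list, and genes said to be chosen afterwards. The members and lists were chosen with earlier results of these data known. The p-values measure the spread between these arrays, which may be technical. Per array, 11291 to 12366 probes were detected and the median raw intensity was 175.6 to 195.8. Precision is limited by the small number of arrays. Slide and scan batch are not given in the sources used here. Over the Zfp probes, 2 arrays of one group correlated at 0.972 to 0.983, and arrays of opposite groups at 0.924 to 0.949. These values include Zfp330 probe ILMN_2825109, which changed by -4.41, and no value without it is given. They are therefore not read as a shift of the whole set.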

Additional observations from a re-analysis of the deposited data

Results flagged for a closer look

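For 28 Zfp and corepressor probes named in the text, each group of 4 arrays was searched for an array far from the others, which makes 56 groups, and chance alone picks out about 1 in 20. In 1 of them an array stood apart: for the Zfp428 probe ILMN_1228583, methanol array 4 read 5.262 (log2 intensity), below 5.552 to 5.607 on the other methanol arrays. That array also had the fewest Zfp probes detected, 168. The change of this probe was -0.31 with all arrays (limma adjusted p = 0.249) and -0.24 without methanol array 4 (adjusted p = 0.411).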

How the results depend on the processing

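The changes of Zfp330 probe ILMN_2825109, Zfp27 probe ILMN_2490271 and Zfp985 kept their direction and an adjusted p under 0.05 in each alternative that could give a value and without any single array. Detection on all 8 arrays leaves out the first and the third of these probes. No called probe changed direction in any alternative. With arrays scaled to one median, 1 Zfp probe rose and 4 fell (161 and 168 of all probes), the calls lost being Zfp420, Zfp655, Zfp367, Zfp472, Zfp318 and Zfp330 probe ILMN_2440789. With no filter on detection 1 Zfp probe rose, with detection on all 8 arrays 4 fell, without a variance trend 5 fell, and with robust eBayes 5 rose, both Zfp131 probes being added there. Of the pairs, detection on all 8 arrays left 1 Zfp pair past the test, since the Zfp330 pair was not compared. Over all pairs the count was 146 in the deposited normalized table, 147 without background correction and 98 without a filter, against 62.

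Leaving out 1 array at a time, Zfp probes that rose numbered 1 to 3 and those that fell 3 to 7, over all probes 204 to 466 rose and 152 to 434 fell, 2 Zfp pairs passed throughout, and 37 to 59 of all pairs did. The lowest count of risers came without methanol 1, saline 3 or saline 4, and the lowest count of those that fell without methanol 3 or 4 or saline 2, 3 or 4. Zfp420 was lost without methanol 3 or saline 3 (adjusted p up to 0.0649), Zfp655 without methanol 3 or 4 or saline 2, 3 or 4 (up to 0.0958), and Zfp367 without methanol 1 or 4 or saline 3 or 4 (up to 0.0884). Zfp758 was lost without methanol 2 or 4 or any saline array, Zfp706 without methanol 2, 3 or 4 or saline 2, 3 or 4 (up to 0.103), Zfp472 without methanol 2, 3 or 4 or saline 1, 2 or 4, and Zfp318 without methanol 1, 2 or 3 or saline 2, 3 or 4 (up to 0.147). Atf7ip was lost without methanol 1, 2 or 3 or saline 2 or 4, and also without the variance trend or with arrays scaled to one median.

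Some changes near 0, none past the test, turned sign. With median scaling Zfp219 was at -0.0175, Setdb1 at -0.0043 and Zfp804a at -0.0012. With 1 array left out, Zfp219 ran from -0.0441 to 0.0528, with -0.0139 and -0.0122 between, Setdb1 from -0.0626 to 0.1053, with -0.0187 and -0.0365 between, and Zfp804a from -0.0521 to 0.0785, with -0.0225, -0.0337 and -0.0165 between. Zfp346 ran from -0.0973 to 0.0072, with 0.0066 between. The cause was not tested.

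The labels number the samples 1 to 4 in each group. Same-numbered samples deviated together weakly (correlations 0.185, -0.109, -0.013 and 0.250), and not every sample correlated best with its own number, so the numbers were not taken as pairs. With the replicate number as a block, 5 Zfp probes rose and 8 fell, the 11 calls and both Zfp131 probes, and over all probes 477 rose and 483 fell.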
